A study of Mus musculus with 12 samples.

Results

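The comparison described here sets 3T3-L1 cells given a miR-335-5p mimic against 3T3-L1 cells given a non-targeting (NT) mimic, both at day 6 of adipocyte differentiation. It was taken from the labels as the 3 libraries of the miR-335-5p mimic and the 3 libraries of the NT mimic at day 6, which are 6 of the 12 libraries of the series. The other 6 hold the same mimics at day 3. 3T3-L1 is a mouse fibroblast line that serves as a preadipocyte model, because its cells fill with triglyceride after hormonal induction. The cells of both groups were transfected by lipofection while still fibroblasts, for 48 h with 20 nM of their mimic, and were then induced with insulin, 3-isobutyl-1-methylxanthine, rosiglitazone and dexamethasone up to day 3. From then to day 6 they received insulin without the other agents and at the end plain medium, so all 6 libraries share the same hormones. The miR-335-5p mimic is a synthetic small RNA made to do the work of the mature microRNA, and the NT mimic carries a scrambled sequence. The comparison asks which transcripts of cells late in differentiation differ after miR-335-5p was raised before its start.

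Several limits of the material apply to all values. The cells are 1 line, the sources name no transfection after the first one, and the level of mature miR-335-5p in the cells sequenced was not analysed here. The labels give replicate numbers 1 to 3 but do not say whether these are separate cultures or transfections, so each p-value is set against a spread that may be technical only. The libraries are of bulk RNA, in which fewer cells of a kind and less RNA per cell cannot be told apart.

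A microRNA guides an Argonaute protein to messenger RNAs by pairing of its seed, bases 2 to 8 from its 5′ end, with sites that lie mostly in 3′ untranslated regions (3′ UTRs). Such pairing lowers the stability and the translation of the transcript. The gene of miR-335 lies in an intron of Mest, an imprinted gene that is expressed in adipose tissue. As preadipocytes turn into adipocytes, they take up genes of fatty acid and triglyceride synthesis and give up much of the collagen-rich matrix of the fibroblast.

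The mature mouse sequence is shown because every site search below rests on its seed, which stands in capitals. It was taken from RefSeq (GRCm38.p6), where it lies on the plus strand at chr6:30741314-30741336.
mmu-miR-335-5p: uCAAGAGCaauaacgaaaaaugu
A site that pairs with the whole seed and is followed by an A reads GCTCTTGA (8-base match). The 7-base matches are GCTCTTG and CTCTTGA, each of which is contained in the 8-base match. Only the transcript's own strand was searched, in the longest 3′ UTR that GENCODE M21 gives for a gene, for 11564 of the 11703 genes tested.

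Genes with an 8-base match in the 3′ UTR had median differences close to those of other genes at day 6. The values here and below are differences in log2 CPM (counts per 1e+06, after scaling) of the miR-335-5p library minus the NT library of the same replicate number, given for pairs 1, 2 and 3 in that order. Over the 404 tested genes with an 8-base match, the median difference was -0.043, 0.0037 and -0.0048. Over the 2218 genes with a 7-base match only it was -0.021, 0.0078 and 0.0034, and over the 8942 genes with neither it was -0.0098, -0.012 and -0.0058. Of the genes with an 8-base match, 34 were higher in all 3 pairs (8.42%) and 63 lower in all 3 pairs (15.6%). Over all genes tested, these shares were 10.2% and 14.9%.

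The 5 genes with an 8-base match that had the lowest mean difference among those at 5 CPM or more, all lower in every pair, are shown with 10 bases before and 7 after the match, which stands in capitals. Icmt, a candidate target of the study that also holds an 8-base match, and Vat1, a candidate with a 7-base match, follow them.
Ifit3: ctgacaaactGCTCTTGAttgtttc
H2-Q4: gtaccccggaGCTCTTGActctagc
Tmem229b: caactggacaGCTCTTGAgaaaggt
Cryl1: gagatgagaaGCTCTTGAtccaatc
Fbln1: ttctaacaaaGCTCTTGAcgacctc
Icmt: gagaggtgtaGCTCTTGAttaatcc
Vat1: ctctgagctcGCTCTTGcccttcgc
In GRCm38, all 7 windows lie in the 3′ UTR of the gene, at chr19:34588541-34588565 (Ifit3, plus strand), chr17:35384397-35384421 (H2-Q4, plus strand), chr12:78961898-78961922 (Tmem229b, minus strand), chr14:57275377-57275401 (Cryl1, minus strand), chr15:85286445-85286469 (Fbln1, plus strand), chr4:152304265-152304289 (Icmt, plus strand) and chr11:101460016-101460040 (Vat1, minus strand). A match of these letters is a description of the transcript and not a shown site of action.

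Fbln1, which encodes the matrix protein fibulin 1, had 5.21, 3.28 and 5.63 CPM in the miR-335-5p libraries, against 5.65, 5.72 and 5.66 CPM in the NT libraries. The 2 groups did not overlap, but pairs 1 and 3 differed by only -0.12 and -0.0056 and the low value of the second miR-335-5p library set the mean. Ifit3, an interferon-induced protein, had 3.69, 6.01 and 4.53 CPM in the miR-335-5p libraries, against 4.07, 10.8 and 5.39 CPM in the NT libraries, and its near copy Ifit3b is given with it below. H2-Q4, a non-classical MHC class I gene, had 8.34, 6.26 and 6.39 CPM in the miR-335-5p libraries, against 9.92, 9.99 and 6.56 CPM in the NT libraries, so that again 1 pair held most of the difference. Cryl1, a crystallin-related dehydrogenase, had 5.46, 4.39 and 4.78 CPM in the miR-335-5p libraries, against 7.63, 5.67 and 5.02 CPM in the NT libraries. Tmem229b, a predicted membrane protein, had 3.39, 5.35 and 5.03 CPM in the miR-335-5p libraries, against 4.78, 5.37 and 6.88 CPM in the NT libraries, and the libraries of the 2 mimics overlapped in all of these genes but Fbln1. These genes were chosen for their low values, so their direction is no evidence about the seed.

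The candidate targets of miR-335-5p taken from the study stood close to 0. They are 13 genes that its text or primer list names, a small part of the targets it retrieved. Of the 13 candidates, 1 (Utrn, the dystrophin relative utrophin) was higher and 2 (Icmt and Vat1) were lower in all 3 pairs, and the median candidate differed by 0.026, 0.026 and -0.0098. Icmt, which methylates prenylated proteins, had 43.8, 36.4 and 35.7 CPM in the miR-335-5p libraries, against 44.4, 38.2 and 39.1 CPM in the NT libraries, differences of -0.018, -0.069 and -0.13. Vat1, a vesicle membrane protein, had 309, 288 and 287 CPM in the miR-335-5p libraries, against 320.1, 298 and 301 CPM in the NT libraries, differences of -0.050, -0.049 and -0.066. Utrn differed by 0.026, 0.026 and 0.012. The pair that the study put first, Gga3 (an adaptor of sorting at the Golgi) and Gna12 (the alpha subunit of a G protein), have neither an 8-base nor a 7-base match in the 3′ UTR searched. The study's own evidence for them is of other times and kinds. It chose both genes for negative correlations with miR-335-5p in mouse fat tissue. It reports both RNAs as lowered by the mimic in fibroblasts before induction, and correlations on earlier days of differentiation. In human SGBS cells it reports GNA12 as lowered by the mimic and no significant effect for GGA3. Its reporter assay in HeLa cells fell with the Gga3 sites and not with those of Gna12. Gna12 differed by 0.099, 0.0037 and -0.0098 and Gga3 by -0.36, 0.095 and 0.30, so that Gga3 was lower in pair 1 and higher in pairs 2 and 3. Far1, which makes fatty alcohols, and Igf2bp2, an mRNA-binding protein, both with a 7-base match, also crossed 0 between pairs (-0.14, 0.028 and 0.17, and -0.22, 0.079 and 0.019). Hspa13, Ppil2, Atp2b4, Dhcr7, Sgpp1 and Sod3 had no single direction either, within -0.13 and 0.20. Mest, the host gene, which is not itself a candidate, had 19.2, 4.49 and 1.61 CPM in the miR-335-5p libraries, against 16.5, 4.92 and 1.44 CPM in the NT libraries.

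The 6 libraries held between 17.7 and 18.9 counts in units of 1e+06, and 13500 to 13644 genes had a count above 0. Adipocyte genes were present in every library: Fabp4, the fatty acid carrier of fat cells, stood at 2990.0 to 5109.7 CPM under the miR-335-5p mimic and 2830.3 to 4844 CPM with the NT mimic, and the adiponectin gene Adipoq at 1490.3 to 2030.0 CPM under the miR-335-5p mimic and 1641 to 1741 CPM with the NT mimic. Fibroblast genes were present too, with Pdgfra at 183 to 565 CPM in the miR-335-5p libraries and 202 to 642 CPM in the NT libraries. Of 14 macrophage markers, 2 were tested (Cd68 and Cd14), 6 were at 0 in all 6 libraries (Itgam, C1qa, C1qb, C1qc, Tyrobp and Cd163), and the summed level of the list ran from 4.48 to 11.2 CPM under the miR-335-5p mimic and from 5.23 to 12.6 CPM with the NT mimic. Endothelial markers, with 1 of 10 tested and Kdr, Cldn5 and Tie1 at 0, summed to 1.21 to 1.72 CPM in the miR-335-5p libraries and 0.854 to 1.68 CPM in the NT libraries. Epithelial markers summed to 20.2 to 48.9 CPM under the miR-335-5p mimic and 19.6 to 55.4 CPM with the NT mimic (3 of 10 tested), and skeletal muscle and bone markers to 23.4 to 36.9 CPM under the miR-335-5p mimic and 24.9 to 35.8 CPM with the NT mimic (3 of 15 tested). Same-numbered libraries of the 2 mimics resembled each other more than libraries of the same mimic did, so the values below are read by pair.

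No gene passed the study's threshold at day 6 in the tests with all pairs, and the differences were small. The study, with DESeq2 at q below 0.01, reports genes higher and lower at this day. Why the calls differ was not tested. In edgeR's quasi-likelihood test without a block for the pairs, 0% of 11703 genes had an adjusted p below 0.01, 21 had an unadjusted p below 0.05, and 16 did by DESeq2. With the replicate number as a block, 0 genes passed 0.01 and 593 had an unadjusted p below 0.05 (198 by DESeq2 with the block). The 593 are 5.07% of those tested, close to the share that a threshold of 0.05 lets through where no gene differs. Of them, 222 were higher (1.9% of those tested) and 371 lower (3.17%). In all 3 pairs, 26 genes were more than 1.2-fold higher and 61 more than 1.2-fold lower. For 1.5-fold the numbers were 1 and 9, and for 2-fold 0 and 1, the histone gene H2bc23. A direction shared by the 3 pairs was found in 1192 genes that were higher (10.2% of those tested) and in 1741 that were lower (14.9%). In 106 genes (0.906%) every miR-335-5p library lay above every NT library, and in 196 genes (1.67%) every one lay below. The count of 1 direction in all pairs and of no overlap is a description with no test. With only 3 pairs, many genes share a direction even where the mimics do not differ. These shares of all genes are the background to each count by list below. The lists and their members were chosen with earlier results of these data known, so the counts by list are a description too.

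With the block and a threshold of 0.05, 3 genes passed, all lower with the miR-335-5p mimic (0.0256% of those tested). Sned1, an extracellular matrix glycoprotein, was lower in each pair by a like amount, with 11.9, 27.1 and 48.5 CPM in the miR-335-5p libraries, against 17.0, 36.6 and 64.5 CPM in the NT libraries (log2 -0.45, 95% interval -0.59 to -0.30, adjusted p = 0.0189). The levels ran apart by replicate number, the third library of both mimics being highest and the first lowest, so that the groups overlapped although each pair differed the same way. Cyp2f2, a cytochrome P450 known from the lung, had 17.3, 33.4 and 31.9 CPM in the miR-335-5p libraries, against 26.0, 52.2 and 43.5 CPM in the NT libraries (log2 -0.56, 95% interval -0.75 to -0.37, adjusted p = 0.0431). It stood lower in all 3 pairs at day 3 as well, by -1.12, -1.09 and -0.53. H2bc23, a replication-independent histone H2B gene, had 0.354, 2.73 and 1.71 CPM in the miR-335-5p libraries, against 2.04, 6.31 and 3.95 CPM in the NT libraries (log2 -1.39, 95% interval -1.83 to -0.95, adjusted p = 0.0189). Its values rest on few counts, and histone genes have near-identical copies, so its size is uncertain. In the test without the block the adjusted p of all 3 was 1. With the block, limma-voom also called 3 genes, while DESeq2 (adjusted p of 0.0757 to 0.183 for the 3 genes), edgeR on the 6 libraries of day 6 alone (0.0518 to 0.156) and edgeR with 1 block shared by both days called 0.

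**Figure D1:**
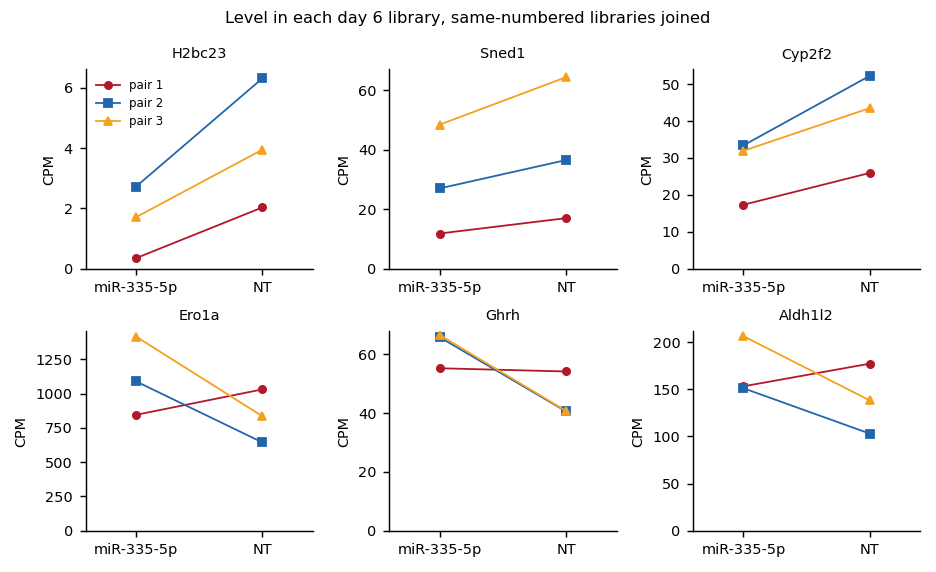
CPM (vertical axis, from 0) of 6 genes in the 3 miR-335-5p libraries (left) and the 3 NT libraries (right) of day 6, with same-numbered libraries joined by a line and coloured by replicate number. In H2bc23, Sned1 and Cyp2f2 all 3 lines run lower at the miR-335-5p end, while in Ero1a and Aldh1l2 pair 1 runs against pairs 2 and 3 and in Ghrh pair 1 is nearly level.

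The genes whose smallest pair difference was largest had many functions. Among genes at 5 CPM or more with 1 direction in all pairs, the 12 each way with the largest least difference are described, in order of the least difference. They were chosen by these values, which are therefore a description. Higher with the miR-335-5p mimic were Slc22a23, Fam241a, Orm1, Eif3j2, Sc5d, Nkiras1, Dhrs9, Gnpnat1, Gchfr, Enpp2, Peg3 and Clcn5, with mean differences between 0.20 (Clcn5) and 0.53 (Slc22a23). Lower were Slc6a2, Cyp2f2, Sned1, Adamts2, Pear1, Exoc3l4, Fmod, C1s2, Dcn, Lrrk1, Dhx58 and Ssbp4, with mean differences between -0.64 (Slc6a2) and -0.24 (Lrrk1).

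Among the higher genes, Slc22a23, a solute carrier with no established substrate, had 7.78, 13.5 and 10.1 CPM in the miR-335-5p libraries, against 4.73, 9.29 and 7.85 CPM in the NT libraries, a mean difference of 0.53 ± 0.17 (SD over 3 pairs, as below). Enpp2, which encodes autotaxin, the secreted enzyme that makes lysophosphatidic acid, had 461, 356 and 505 CPM in the miR-335-5p libraries, against 402, 196 and 386 CPM in the NT libraries, a mean of 0.48 ± 0.34. Pair 2 differed most and pair 1 least in Enpp2, and the groups overlapped in both genes. Orm1, an acute-phase plasma protein whose gene has close relatives, had 15.97, 5.50 and 8.15 CPM in the miR-335-5p libraries, against 12.4, 4.47 and 6.72 CPM in the NT libraries. The first library of each mimic was the highest in Orm1, and likewise in Fam241a, Dhrs9, Peg3 and Clcn5, where leaving out 1 library turned the direction of the fold change that ignores pairs. Peg3, an imprinted zinc finger gene, had 13.7, 2.27 and 3.52 CPM in the miR-335-5p libraries, against 10.7, 1.99 and 2.94 CPM in the NT libraries. Dhrs9, a retinol and steroid dehydrogenase, had 24.2, 10.9 and 8.85 CPM in the miR-335-5p libraries, against 20.8, 7.75 and 6.94 CPM in the NT libraries, and Clcn5, a chloride-proton exchanger of endosomes, differed by 0.21, 0.18 and 0.22. Gchfr, the feedback protein of tetrahydrobiopterin synthesis, differed by 0.63, 0.20 and 0.26.

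In 3 of the 12 higher genes the groups did not overlap. Gnpnat1, an enzyme of UDP-N-acetylglucosamine synthesis, had 34.2, 32.4 and 29.8 CPM in the miR-335-5p libraries, against 29.5, 26.8 and 25.8 CPM in the NT libraries. Its mean was 0.23 ± 0.034, with a 95% interval under the block of 0.090 to 0.37. Nkiras1, a Ras-like inhibitor of NF-kB signalling, had 11.4, 11.7 and 11.8 CPM in the miR-335-5p libraries, against 9.72, 9.79 and 9.93 CPM in the NT libraries. Its 6 libraries were almost level within each mimic (mean 0.24 ± 0.013), but its 95% interval under the block was 0.049 to 0.43. In genes chosen by their least pair difference, the SD over pairs understates the uncertainty. Eif3j2, a subunit of translation initiation factor 3, had 63.9, 63.6 and 59.3 CPM in the miR-335-5p libraries, against 52.6, 49.7 and 49.2 CPM in the NT libraries. Its near copy Eif3j1 went the other way (-0.24, -0.13 and -0.56), and the 2 genes together had 103.0, 98.6 and 80.2 CPM under the miR-335-5p mimic and 98.9, 88.03 and 80.1 CPM with the NT mimic, so how reads were shared between the copies is uncertain.

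Among the lower genes, Slc6a2, the noradrenaline transporter, had 3.59, 3.33 and 5.08 CPM in the miR-335-5p libraries, against 5.14, 5.77 and 8.01 CPM in the NT libraries (mean -0.64 ± 0.13). All 3 miR-335-5p libraries lay below the lowest NT library. The same held for Lrrk1, a leucine-rich repeat kinase, with 21.8, 22.1 and 22.8 CPM in the miR-335-5p libraries, against 25.8, 26.2 and 27.0 CPM in the NT libraries, and for Ssbp4, a single-stranded DNA binding protein, with 19.8, 23.6 and 22.6 CPM in the miR-335-5p libraries, against 23.7, 29.5 and 26.6 CPM in the NT libraries. The other lower genes overlapped between groups, because levels differed more between replicate numbers than between mimics. Adamts2, which trims the ends of fibrillar procollagens, had 19.8, 28.7 and 44.5 CPM in the miR-335-5p libraries, against 24.9, 37.3 and 56.8 CPM in the NT libraries. Its mean was -0.35 ± 0.025, with a 95% interval under the block of -0.51 to -0.20. Dcn, the proteoglycan decorin, had 11.4, 15.8 and 34.4 CPM in the miR-335-5p libraries, against 14.6, 20.1 and 40.7 CPM in the NT libraries, and its relative Fmod, fibromodulin, 1.82, 4.54 and 8.55 CPM under the miR-335-5p mimic, against 3.00, 5.72 and 10.3 CPM under the NT mimic. Both bind collagen fibrils. Pear1, a platelet and endothelial receptor, differed by -0.46, -0.44 and -0.27 and Exoc3l4, an exocyst-like protein, by -0.30, -0.27 and -0.36. C1s2, a copy of the complement protease gene C1s, and Dhx58, an RNA sensor, are taken up with their pathways below.

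**Figure D2:**
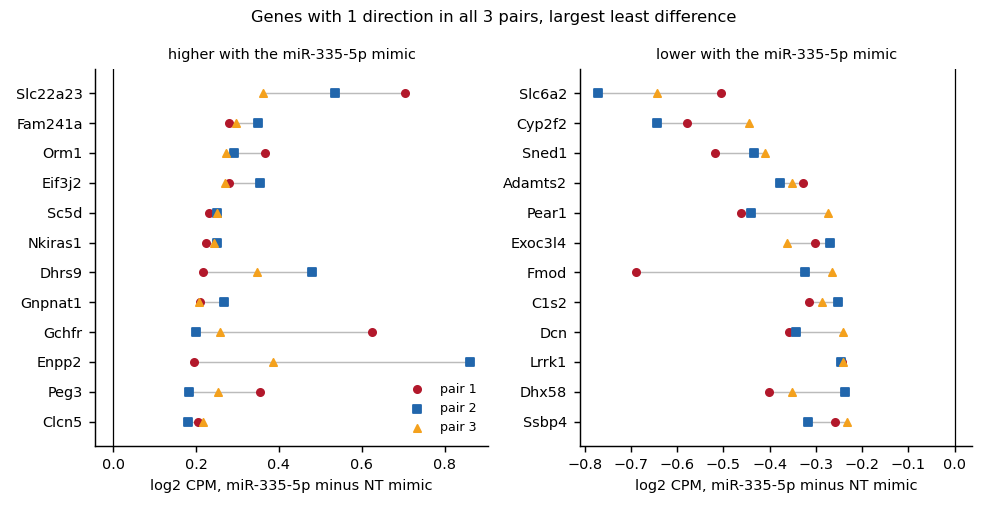
Differences in log2 CPM, miR-335-5p minus NT mimic (horizontal axis), of the 12 genes each way with the largest least difference over the 3 pairs. Each symbol is 1 pair, and all 3 symbols of a gene lie on the same side of 0 because the genes were chosen so.

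Genes of cholesterol synthesis stood slightly higher with the miR-335-5p mimic. Their enzymes turn acetyl-CoA into squalene and then into cholesterol, under the control of the transcription factor SREBP2, and the retaining protein INSIG1 and the LDL receptor belong to the same feedback. Of the 24 tested genes of the list, 19 were higher and 0 lower in all 3 pairs, beside 10.2% and 14.9% of all genes, and the median member differed by 0.085, 0.10 and 0.21, against -0.014, -0.0081 and -0.0032 for all genes. None had groups that did not overlap and none passed the test. With the block, 10 were higher and 0 lower at an unadjusted p below 0.05, beside 1.9% and 3.17% of all genes. Fdft1, squalene synthase, had 157, 85.3 and 79.2 CPM in the miR-335-5p libraries, against 139.9, 72.2 and 56.5 CPM in the NT libraries, and differed by 0.17, 0.24 and 0.49. Sc5d, a late desaturase of the sterol ring, had 64.2, 59.7 and 47.5 CPM in the miR-335-5p libraries, against 54.7, 50.2 and 39.9 CPM in the NT libraries, and differed by 0.23, 0.25 and 0.25, so its 3 pairs were nearly equal. In both genes the first libraries were highest under either mimic, and the groups overlapped.

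The differences varied in size between members of the pathway. The members beyond Fdft1 and Sc5d named here were chosen after their values were seen. Sqle, squalene epoxidase, had 173, 86.5 and 78.5 CPM in the miR-335-5p libraries, against 161, 68.2 and 61.2 CPM in the NT libraries, with pair 1 the smallest difference (0.10, 0.34 and 0.36). Idi1, which isomerises isopentenyl diphosphate, differed by 0.077, 0.42 and 0.24, Msmo1, a sterol C4 oxidase, by 0.073, 0.30 and 0.33, and Cyp51, the lanosterol demethylase, by 0.22, 0.16 and 0.31. Fdps, farnesyl diphosphate synthase, differed by 0.19, 0.16 and 0.28, and Hmgcs1, which makes HMG-CoA, by 0.090, 0.17 and 0.22. Srebf2, the gene of SREBP2, was level in pairs 1 and 2 and higher in pair 3 (-0.00082, 0.017 and 0.20). Ebp, the sterol isomerase, was higher in pair 1 and lower in pairs 2 and 3 (0.15, -0.23 and -0.16). At day 3 the median member differed by 0.060, 0.091 and 0.035, and the difference between the days was not called for any member (lowest unadjusted p = 0.0260 with the block).

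The sterol response element that SREBP2 binds, searched as TCACNCCAC on both strands in the 250 bases before and 50 after the gene start (RefSeq, GRCm38.p6), was found for 1 of the 17 list members with such a promoter, Hmgcs1, and for 1.44% of all 27025 genes with one. The match stands in capitals with 8 bases on either side, from chr13:119690206-119690230.
Hmgcs1: tcaccgtcTCACCCCACttcccagg
A search for 1 spelling in a short window says nothing of the other promoters.

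Interferon-response genes stood lower with the miR-335-5p mimic, at low levels. These genes answer type I and II interferon through STAT and IRF factors, and encode RNA sensors (Dhx58, Ddx58), antiviral effectors (Ifit, Mx and Gbp proteins), negative regulators (Usp18) and the immunoproteasome and peptide transporter of MHC class I (Psmb8, Psmb9, Tap1). Of the 35 tested genes, 0 were higher and 21 lower in all 3 pairs, beside 10.2% and 14.9% of all genes. The median member differed by -0.19, -0.24 and -0.12. In 5 genes the groups did not overlap, all lower, beside 1.67% of all genes. With the block, 13 were lower and 0 higher at an unadjusted p below 0.05, beside 3.17% and 1.9% of all genes. None passed the adjusted threshold. Over the members at 5 CPM or more, the median of the members' mean differences was -0.11, against -0.19 over all tested members.

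Usp18, the protease that removes ISG15 from proteins, had 1.97, 1.77 and 1.26 CPM in the miR-335-5p libraries, against 3.05, 3.08 and 2.08 CPM in the NT libraries (mean -0.68 ± 0.081). All 3 miR-335-5p libraries lay below the lowest NT library, and the values rest on few counts. Iigp1, an interferon-inducible GTPase, had 2.32, 1.82 and 1.46 CPM in the miR-335-5p libraries, against 3.26, 4.37 and 2.08 CPM in the NT libraries, with pair 2 the largest difference. Dhx58, which encodes the RNA sensor LGP2, had 5.41, 7.87 and 8.05 CPM in the miR-335-5p libraries, against 7.17, 9.29 and 10.3 CPM in the NT libraries (mean -0.33 ± 0.084). Ifit3 and Ifit3b are near-identical and were also summed, to 5.76, 10.8 and 7.90 CPM under the miR-335-5p mimic and 7.99, 17.6 and 10.0 CPM with the NT mimic. The sum was lower in every pair, by -0.47, -0.71 and -0.35 on the log2 scale.

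Other members, chosen after their values were seen, gave a like picture. Tap1 had 42.9, 48.9 and 52.5 CPM in the miR-335-5p libraries, against 51.2, 60.9 and 55.6 CPM in the NT libraries, and Psmb8 6.06, 12.9 and 10.7 CPM under the miR-335-5p mimic, against 7.63, 17.7 and 12.3 CPM under the NT mimic. Gbp2, a guanylate-binding protein, differed by -0.26, -0.21 and -0.23 and Parp14, a mono-ADP-ribosyltransferase, by -0.14, -0.37 and -0.54. Bst2, the tetherin gene, and Isg15, the ubiquitin-like modifier, did not overlap between groups, with Bst2 at 29.8, 25.6 and 27.9 CPM in the miR-335-5p libraries, against 32.8, 30.7 and 32.6 CPM in the NT libraries. Mx2 also did not overlap, but stood under 1 CPM in all 6 libraries. The sensor genes Tlr3 and Zbp1 crossed 0 between pairs. At day 3 the median member differed by -0.22, -0.12 and 0.069, lower in pairs 1 and 2 and higher in pair 3.

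A pair of class I MHC genes and a pair of complement protease genes, none of them on the list, were picked after their values were seen and speak for no other gene of their families. H2-D1 had 319.5, 295 and 309 CPM in the miR-335-5p libraries, against 374, 371 and 350.5 CPM in the NT libraries and H2-K1 187, 198 and 189.7 CPM under the miR-335-5p mimic, against 221, 235 and 202 CPM under the NT mimic, and in neither did the groups overlap. These genes have close relatives, so reads may be shared among them. C1s1 had 60.0, 104 and 128 CPM in the miR-335-5p libraries, against 71.8, 119.8 and 164 CPM in the NT libraries, and with its copy C1s2 (8.24, 13.8 and 17.4 CPM under the miR-335-5p mimic, against 10.3, 16.5 and 21.2 CPM under the NT mimic) it summed to 68.3, 118 and 146 CPM under the miR-335-5p mimic and 82.1, 136 and 185 CPM with the NT mimic. Both of these protease genes were lower in 3 of 3 pairs, and their groups overlapped. The macrophage marker sums given above, to which such genes could add, ran over like ranges in the 2 groups, and C1qa, C1qb and C1qc were at 0. The part of other cells in these values was not tested.

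The interferon-stimulated response element, searched as GAAANNGAAA on both strands in the same promoter window, was found for 13 of the 27 list members with a promoter and for 3.99% of all 27025 genes (3.55% of 9411 tested genes with a promoter). It is shown for 6 of them, on the gene's own strand with 8 bases on either side and the match, or its reverse complement, in capitals.
Ifit1: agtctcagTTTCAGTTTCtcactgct
Ifit3: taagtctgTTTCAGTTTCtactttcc
Ifit3b: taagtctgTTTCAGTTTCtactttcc
Isg15: aggaaaccGAAACAGAAAatagctct
Gbp2: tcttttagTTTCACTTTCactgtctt
B2m: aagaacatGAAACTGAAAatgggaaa
In GRCm38.p6 they lie at chr19:34640796-34640821 (Ifit1), chr19:34583399-34583424 (Ifit3), chr19:34607795-34607820 (Ifit3b), chr4:156200867-156200892 (Isg15, minus strand), chr3:142620596-142620621 (Gbp2) and chr2:122147540-122147565 (B2m). The windows of Ifit3 and Ifit3b are identical, as are large parts of the 2 genes. The list was drawn up as genes known to answer interferon, with earlier results of these data known. The element's presence was therefore to be looked for and is no finding about the mimic.

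**Figure D3:**
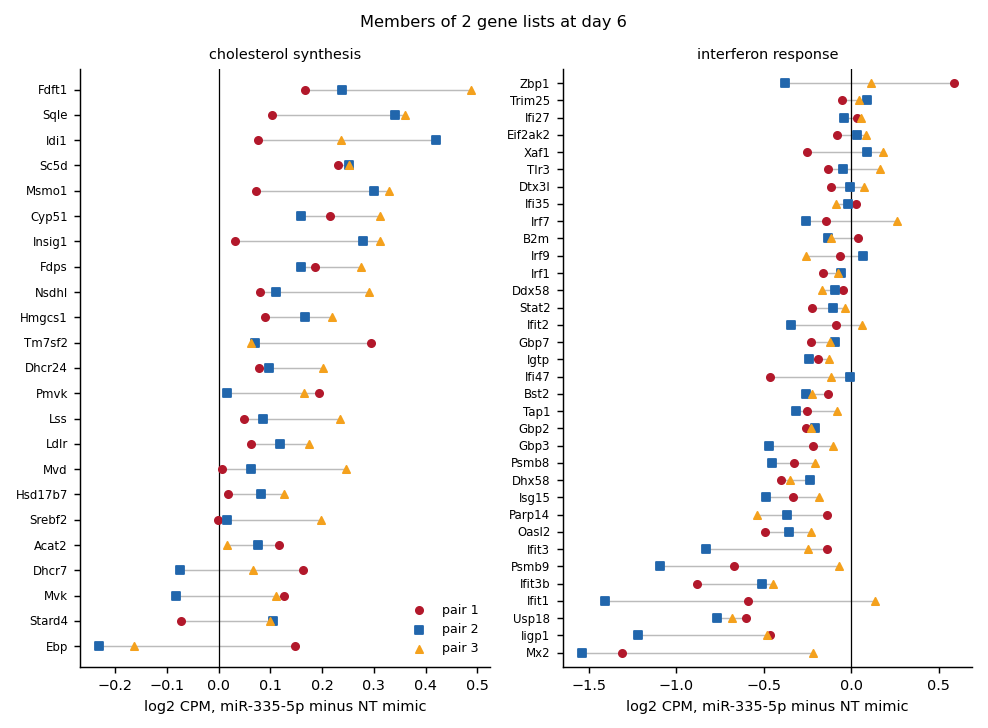
Differences in log2 CPM, miR-335-5p minus NT mimic (horizontal axis), of 23 of the 24 tested genes of cholesterol synthesis and 34 of the 35 tested interferon-response genes, ordered by their mean, with 1 symbol per pair. In 18 of the 23 and in 0 of the 34 all 3 symbols lie above 0, and in 0 of the 23 and in 21 of the 34 all 3 lie below it.

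Genes of the extracellular matrix stood mostly lower with the miR-335-5p mimic. Of 33 tested matrix glycoproteins and proteoglycans, 14 were lower and 4 higher in all 3 pairs, beside 14.9% and 10.2% of all genes. The median member differed by -0.12, -0.091 and -0.12. With the block, 9 were lower and 1 was higher at an unadjusted p below 0.05, beside 3.17% and 1.9% of all genes. Besides Dcn and Fmod, given above, and chosen after their values were seen, Thbs1, the matricellular protein thrombospondin 1, had 52.9, 30.2 and 26.8 CPM in the miR-335-5p libraries, against 68.8, 34.1 and 32.4 CPM in the NT libraries, and Ogn, osteoglycin, 10.8, 32.1 and 44.5 CPM under the miR-335-5p mimic, against 14.5, 35.5 and 54.5 CPM under the NT mimic. Levels ran in opposite orders of replicate number in these 2 genes, and each was lower in all 3 pairs. Nid2, a basement membrane protein, went the other way (0.12, 0.17 and 0.17), and so did Prg4, lubricin (0.066, 0.57 and 0.18).

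Of 19 tested collagens, 10 were lower and 0 higher in all 3 pairs, beside 14.9% and 10.2% of all genes. The median member differed by -0.079, -0.011 and -0.12. Col16a1, a fibril-associated collagen, had 72.8, 76.0 and 96.1 CPM in the miR-335-5p libraries, against 83.3, 93.1 and 115 CPM in the NT libraries (mean -0.25 ± 0.051), and Col11a1, a fibrillar collagen, had 29.4, 61.3 and 111 CPM in the miR-335-5p libraries, against 34.7, 67.9 and 127 CPM in the NT libraries (mean -0.19 ± 0.045). The groups overlapped in both. Of 22 genes of collagen processing, 6 were lower and 1 higher in all pairs. Loxl4, a lysyl oxidase, differed by -0.42, -0.35 and -0.15, and P4ha1, a collagen prolyl hydroxylase, was the one that stood higher (0.047, 0.12 and 0.031).

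Among 18 tested metalloproteinases and their inhibitors, 6 were lower and 1 higher in all 3 pairs, beside 14.9% and 10.2% of all genes. The median member differed by 0.0066, -0.14 and -0.26, so pair 1 was level. The median of the members' mean differences, -0.22, was -0.12 over members at 5 CPM or more and -0.14 without pair 3. Timp4, a metalloproteinase inhibitor, had 3.03, 1.67 and 2.82 CPM in the miR-335-5p libraries, against 4.22, 3.08 and 4.70 CPM in the NT libraries, and its groups did not overlap. Mmp3, stromelysin, had 1.11, 0.353 and 0.302 CPM in the miR-335-5p libraries, against 2.09, 1.54 and 0.694 CPM in the NT libraries, levels at which few counts decide. Adamts1, a protease of proteoglycans chosen after its values were seen, had 206, 220.4 and 248 CPM in the miR-335-5p libraries, against 235, 245 and 313 CPM in the NT libraries.

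Of 17 preadipocyte and fibroblast genes, 6 were lower and 0 higher in all pairs, beside 14.9% and 10.2% of all genes, with a median of -0.12, -0.12 and -0.053. Dlk1, the preadipocyte factor that holds back adipogenesis, had 123, 123 and 286 CPM in the miR-335-5p libraries, against 133, 177 and 312 CPM in the NT libraries, and pair 2 held most of the difference. Fst, which encodes the activin antagonist follistatin, had 5.41, 11.5 and 20.5 CPM in the miR-335-5p libraries, against 5.95, 15.6 and 27.9 CPM in the NT libraries. Of 19 smooth muscle and contractile genes, 4 were lower and 1 higher in all pairs, beside 14.9% and 10.2% of all genes, and 2 were lower and 1 higher at an unadjusted p below 0.05 with the block. Cnn2, a calponin, had 30.9, 41.8 and 46.4 CPM in the miR-335-5p libraries, against 36.1, 46.9 and 52.4 CPM in the NT libraries, and Mylk, myosin light chain kinase, 139.7, 194 and 217 CPM under the miR-335-5p mimic, against 148, 229 and 241 CPM under the NT mimic. Among 26 genes of Wnt and TGF-beta signalling, 7 were lower and 3 higher, with Ltbp1, which stores latent TGF-beta in the matrix, at -0.23, -0.40 and -0.25 and the Wnt antagonist Sfrp2 at -0.57, -0.52 and -0.13.

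Genes of the fat cell itself stood slightly higher in pairs 1 and 2 and near level in pair 3. Of 22 adipocyte identity genes, 5 were higher and 1 lower in all 3 pairs, beside 10.2% and 14.9% of all genes. The median member differed by 0.11, 0.10 and -0.020. The median of the members' mean differences was 0.093, but 0.047 over members at 5 CPM or more and 0.038 without pair 1. Fabp4 had 5109.7, 3497 and 2990.0 CPM in the miR-335-5p libraries, against 4844, 3208 and 2830.3 CPM in the NT libraries, differences of 0.077, 0.12 and 0.079. Pck1, a main enzyme of gluconeogenesis and glycerol synthesis, had 2.93, 2.88 and 0.805 CPM in the miR-335-5p libraries, against 2.19, 0.199 and 0.0534 CPM in the NT libraries, levels that rest on few counts. The level of Adipoq crossed 0 between pairs (0.22, 0.063 and -0.15), as did that of Pparg, the nuclear receptor at the head of the programme (-0.077, 0.11 and 0.019).

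Of 16 genes of the lipid droplet and lipolysis, 4 were higher and 2 lower in all 3 pairs, beside 10.2% and 14.9% of all genes. The median member differed by 0.10, 0.11 and 0.056. The median of the members' mean differences, 0.096, was 0.055 without pair 2 and 0.063 without pair 3. Bscl2, seipin, which shapes budding lipid droplets, had 31.1, 24.7 and 18.3 CPM in the miR-335-5p libraries, against 23.6, 18.1 and 16.5 CPM in the NT libraries (mean 0.33 ± 0.16). Pnpla2, the first lipase of triglyceride breakdown, had 422, 269.8 and 290.4 CPM in the miR-335-5p libraries, against 380.0, 247 and 274 CPM in the NT libraries (mean 0.12 ± 0.034). The groups overlapped in both, and within each mimic the first library stood above the others. Among 26 genes of triglyceride and fatty acid synthesis, 6 were higher and 2 lower. Dgat2, which adds the last fatty acid to triglyceride, had 101, 84.9 and 118 CPM in the miR-335-5p libraries, against 93.9, 73.9 and 97.9 CPM in the NT libraries, and Me1, malic enzyme, a source of NADPH, 194, 163 and 158 CPM under the miR-335-5p mimic, against 183, 138 and 145 CPM under the NT mimic.

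Genes that burn fatty acids and branched-chain amino acids in mitochondria gave smaller differences. Of 24 genes of fatty acid oxidation, 6 were higher and 3 lower in all pairs, beside 10.2% and 14.9% of all genes. Eci1, an enoyl-CoA isomerase, had 89.9, 83.2 and 85.9 CPM in the miR-335-5p libraries, against 80.5, 78.8 and 79.5 CPM in the NT libraries, with no overlap of the groups, and Hadhb, the thiolase of the trifunctional protein, differed by 0.16, 0.20 and 0.085. Among 32 genes of the citric acid cycle and branched-chain amino acid breakdown, 7 were higher and 1 lower, with Dbt and Bcat2, both of branched-chain amino acid breakdown, at 0.23, 0.14 and 0.15 and at 0.068, 0.098 and 0.19.

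The 12 genes that the study names for day 6 divided by pair. They were named on these libraries, so their direction is not independent evidence. In all 3 pairs, 4 were higher (Scd1, Fabp4, Aldoa and Slc2a4) and 4 lower (Col1a1, Col3a1, Lox and Mmp2), and none of the 12 had groups that did not overlap. Scd1, the main stearoyl-CoA desaturase, differed by 0.17, 0.28 and 0.046, and Scd2, its relative, by 0.19, 0.24 and -0.038. Gpd1, which makes glycerol phosphate, had 1031, 477 and 383 CPM in the miR-335-5p libraries, against 697, 361 and 441 CPM in the NT libraries, higher in pairs 1 and 2 and lower in pair 3. Slc2a4, the insulin-responsive glucose transporter, had 108, 92.2 and 98.8 CPM in the miR-335-5p libraries, against 104, 74.1 and 90.6 CPM in the NT libraries. Of the glycolytic enzymes, Aldoa differed by 0.052, 0.082 and 0.14 and Pgk1 by -0.065, 0.16 and 0.095. Lox, the lysyl oxidase that crosslinks collagen, had 233, 246 and 303 CPM in the miR-335-5p libraries, against 308, 291 and 326 CPM in the NT libraries, and Mmp2, gelatinase A, 301, 427 and 717 CPM under the miR-335-5p mimic, against 333, 527 and 847 CPM under the NT mimic. Col1a1 and Col1a2, the chains of type I collagen, differed by -0.066, -0.24 and -0.24 and by 0.035, -0.12 and -0.22, and Col3a1 by -0.014, -0.052 and -0.19.

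Among genes at higher levels, pair 1 differed from pairs 2 and 3. Across the 7377 genes at 20 CPM or more, differences in pair 2 correlated with those in pair 3 at a Pearson r of 0.33, and those in pair 1 with pair 2 at -0.083 and with pair 3 at -0.28. The correlations were weaker with lower genes included, at 0.18, -0.028 and -0.25 over the 9855 genes at 5 CPM or more and at 0.11, 0.020 and -0.091 over all 11703 genes tested, for pairs 2 and 3, 1 and 2, and 1 and 3 in that order. These correlations are across genes, which are not independent, and each point shares its libraries with all others. Of 7041 genes with 1 direction in pairs 2 and 3, 4106 went the other way in pair 1. The differences of pair 2 also ran with the GC content of the transcript (Spearman correlation -0.35 over 9814 genes, against -0.063 in pair 1 and -0.12 in pair 3), and the part of GC content was not tested beyond the alternative given in the closing section.

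**Figure D4:**
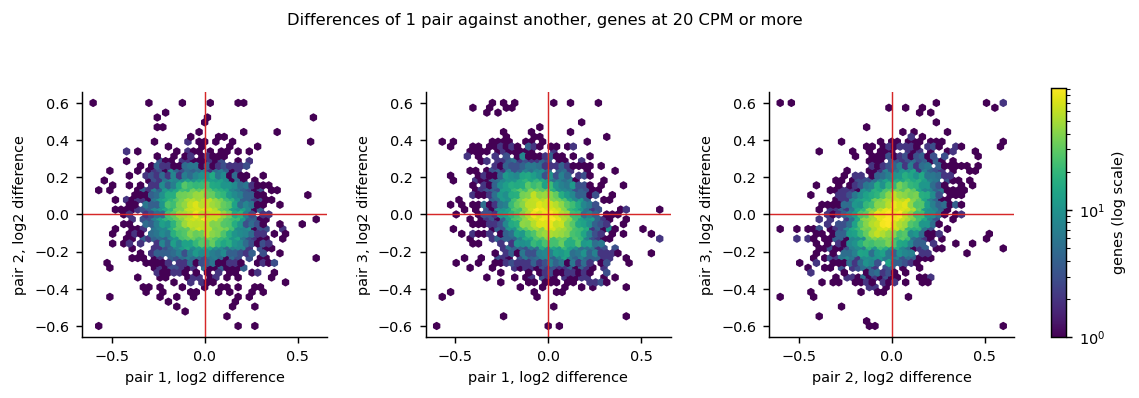
Differences in log2 CPM, miR-335-5p minus NT mimic, of 1 pair (horizontal axis) against another (vertical axis) for the 7377 genes at 20 CPM or more, as hexagons coloured by the number of genes on a log scale, with values beyond the axes drawn at the edge. Pairs 2 and 3 spread along the rising diagonal (r = 0.33), and pairs 1 and 3 along the falling one (r = -0.28).

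When pair 1 was left out of the test with the block, 11 genes passed an adjusted p of 0.01 as higher (0.094% of those tested) and 4 as lower (0.0342%), and none of them but Sned1 and H2bc23 had an adjusted p below 0.05 with all pairs. These calls therefore rest on pairs 2 and 3. Ero1a, the oxidase that drives disulphide formation in the endoplasmic reticulum, had 845, 1089 and 1416 CPM in the miR-335-5p libraries, against 1031, 644 and 835 CPM in the NT libraries, with differences of -0.29, 0.76 and 0.76. Aldh1l2, a mitochondrial folate enzyme, had 153, 151 and 206 CPM in the miR-335-5p libraries, against 177, 103 and 138 CPM in the NT libraries and Ghrh, growth hormone-releasing hormone, 55.2, 65.8 and 66.5 CPM under the miR-335-5p mimic, against 54.1, 40.6 and 40.7 CPM under the NT mimic. The miR-335-5p libraries 2 and 3 stood above their NT partners in each of these, and the first stood below its partner in Ero1a and Aldh1l2 and level with it in Ghrh. Eno2, an enolase, differed by -0.24, 0.52 and 0.77, Egln3, an oxygen-sensing prolyl hydroxylase, by -0.017, 0.38 and 0.26, and Hmox1, haem oxygenase, by -0.28, 0.39 and 0.36. The remaining higher genes were Acox2, Cdsn, Pck1, Trarg1 and Pfkp. Apoe, apolipoprotein E, was higher in pair 1 and lower in pairs 2 and 3 (0.78, -0.63 and -0.96), and Fstl1, a secreted follistatin relative, was level in pair 1 (-0.011, -0.29 and -0.38).

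Whole functions split in the same manner. The 20 hypoxia-response genes had a median of -0.11, 0.18 and 0.19, and 1 of them (P4ha1) was higher and 0 lower in all 3 pairs. The 22 glycolytic genes had a median of -0.064, 0.079 and 0.15, with 3 higher and 3 lower in all pairs. The higher ones included the low Aldoc (2.98, 1.16 and 0.201 CPM under the miR-335-5p mimic, against 2.29, 0.249 and 0.107 CPM under the NT mimic) and Pfkfb3, which makes the activator of phosphofructokinase (0.15, 0.26 and 0.11). The lower ones were Pfkm, the muscle form of phosphofructokinase (-0.10, -0.032 and -0.0090), Eno3, an enolase (-0.096, -0.29 and -0.17), and Ldhb, a lactate dehydrogenase chain (-0.057, -0.057 and -0.027), named for this count after their values were seen. Genes of the unfolded protein and amino acid stress responses stood at -0.042, 0.14 and 0.094, and those of the circadian clock at -0.19, 0.058 and 0.20, where the core factor Arntl itself was close to level (0.023, 0.017 and 0.058). The 32 genes of the cell cycle and DNA replication ran the other way, at 0.22, -0.11 and -0.16. Cdkn1a, the cyclin-dependent kinase inhibitor p21, was the one member with 1 direction in all pairs (0.014, 0.23 and 0.30). Glucocorticoid and cAMP response genes stood at -0.14, -0.025 and 0.087, with Junb (-0.090, -0.041 and -0.072) and the low Fosb (-0.22, -0.30 and -0.27) lower in every pair.

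Among the functions not yet given, retinoid, aldehyde and P450 enzymes and lysosomal genes had medians below 0 in every pair, and insulin signalling genes above 0. The counts below stand beside 14.9% lower and 10.2% higher in all 3 pairs over all genes. Of 20 enzymes of retinoid, aldehyde and P450 metabolism, 9 were lower and 3 higher in all pairs, with a median of -0.088, -0.067 and -0.076. Cyp2f2 led the list and Adh7, a retinol-oxidising alcohol dehydrogenase, had 8.49, 8.18 and 14.9 CPM in the miR-335-5p libraries, against 10.6, 10.3 and 17.4 CPM in the NT libraries. Of 28 lysosomal genes, 8 were lower and 1 higher, with the cathepsins Ctsa at -0.25, -0.079 and -0.047 and Ctsz at -0.045, -0.22 and -0.043. Of 21 chemokines, cytokines and NF-kB feedback genes, 7 were lower and 1 (Orm1) higher, and Cxcl5, a neutrophil chemokine, stood near 1 CPM (0.758, 0.454 and 1.11 CPM under the miR-335-5p mimic, against 0.916, 1.09 and 1.44 CPM under the NT mimic). Among 22 angiogenic factors and adipokines, 3 were lower and 1 (Enpp2) higher, with Igfbp5, an IGF-binding protein, lower in every pair but at 1.01, 0.404 and 0.201 CPM in the miR-335-5p libraries, against 1.17, 2.14 and 0.587 CPM in the NT libraries.

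Membrane traffic, to which the candidate Gga3 belongs, had 6 genes higher and 6 lower of 36, with Igf2r, the receptor that carries lysosomal enzymes, at -0.13, -0.085 and -0.20 and the clathrin light chain gene Cltb at -0.13, -0.20 and -0.082. Of 24 insulin signalling genes, 4 were higher and 2 lower, with Tbc1d1, which holds back glucose transporter traffic, at -0.069, -0.13 and -0.10. Of 23 genes of microRNA processing and silencing, 2 were higher and 2 lower, with Dcp1a, of the decapping complex, at 0.060, 0.14 and 0.18 and Pan3, of a deadenylase, at 0.12, 0.079 and 0.044.

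Of 81 cytosolic ribosomal proteins, 6 were higher and 2 lower in all pairs, and the median crossed 0 (-0.011, -0.065 and 0.064). Rpl23a was the largest (0.053, 0.20 and 0.24) and Rpl23 followed (0.040, 0.070 and 0.055), and both have processed copies that may share reads. Of 77 mitochondrial ribosomal proteins, 6 were higher and 6 lower, with Mrpl50 at 0.20, 0.10 and 0.14 and Mrps5 at 0.032, 0.066 and 0.079. The 52 nuclear-encoded respiratory chain genes had a median of 0.080, -0.11 and -0.055 with 1 higher and 2 lower, Ndufv1 of complex I at -0.011, -0.13 and -0.075 and Cox4i1 of complex IV at -0.056, -0.17 and -0.0051. Of 27 NRF2 and glutathione genes, 3 were higher and 3 lower, with thioredoxin (Txn1) at 0.053, 0.092 and 0.25 and ferritin heavy chain (Fth1) at -0.049, -0.091 and -0.028. In the stress list the folate enzyme Mthfd2 was higher (0.076, 0.064 and 0.15) and the ubiquitin ligase Syvn1 lower (-0.094, -0.046 and -0.021). None of the 6 tested brown and beige fat genes had 1 direction in all pairs.

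**Figure D5:**
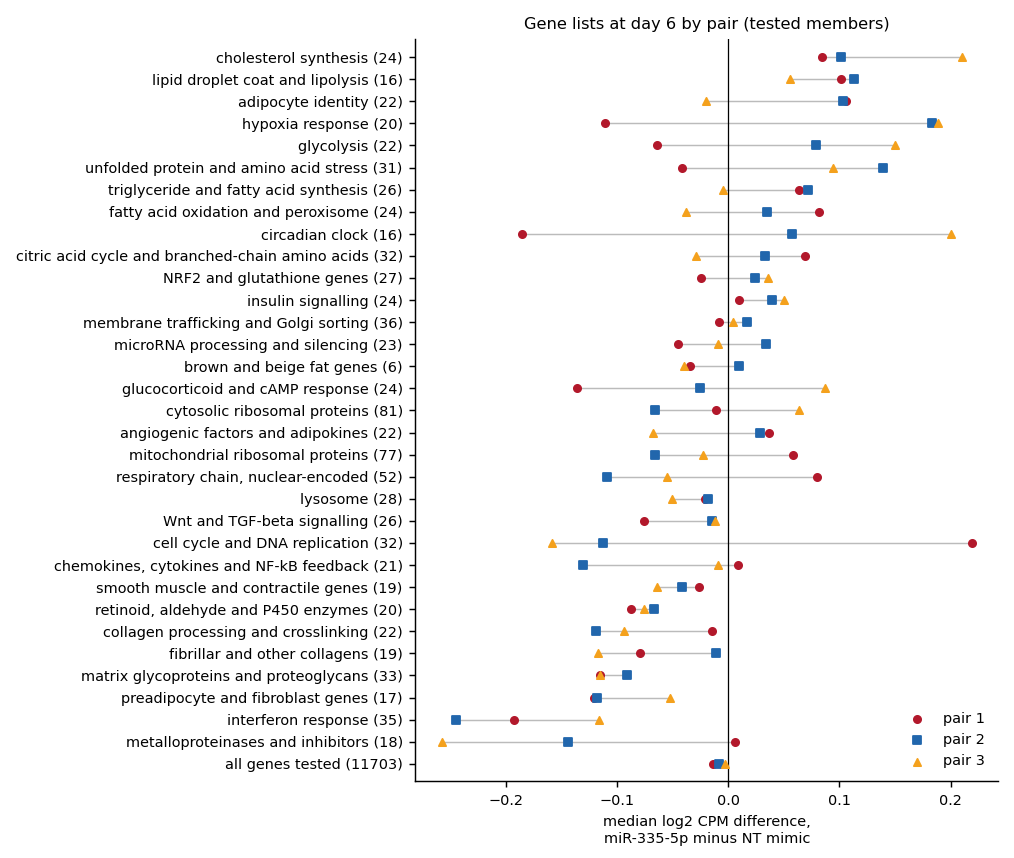
Median difference in log2 CPM, miR-335-5p minus NT mimic (horizontal axis), over the tested members of each of 32 of the 33 gene lists and over all 11703 genes tested, with 1 symbol per pair and the number of members in brackets. Cholesterol synthesis, lipid droplet and insulin signalling lie above 0 in all 3 pairs. Interferon response, matrix glycoproteins, preadipocyte genes, collagens and collagen processing lie below 0 in all 3 pairs. Smooth muscle, Wnt and TGF-beta, retinoid and lysosomal genes do so too. Hypoxia response, circadian clock and cell cycle genes have pair 1 on the other side of pair 3.

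The differences at day 6 and those at day 3 were also set side by side, since the 2 days share no library. Without the block, 0 genes passed the test of the difference between the days at an adjusted p of 0.01, and 29 had an unadjusted p below 0.05. With the block, 361 did, and 1 gene (0.00854%) passed an adjusted p of 0.05. It has the numerical identifier 627914 and no symbol in the annotation used, and had 15.5, 15.9 and 20.9 CPM in the miR-335-5p libraries, against 12.6, 17.0 and 15.9 CPM in the NT libraries at day 6, differences of 0.29, -0.091 and 0.40, against differences of -0.98, -1.09 and -0.56 at day 3 (difference between the days log2 1.12 with the block, adjusted p = 0.0373). With the block, DESeq2, limma-voom and edgeR with 1 block shared by both days passed 0 genes at 0.05 for this difference. Sned1 stood at -0.073, 0.019 and -0.14 at day 3, Slc6a2 at 0.35, 0.25 and -0.17 and Enpp2 at 0.0099, 0.40 and 0.36. In neither Sned1 nor Slc6a2 nor Enpp2 did the difference between the days pass the adjusted threshold. The median matrix glycoprotein differed by -0.011, 0.0011 and 0.031 at day 3, the median preadipocyte gene by -0.060, -0.22 and -0.061, and the median adipocyte identity gene by 0.00029, -0.056 and 0.056, beside the day 6 values given above.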

How the data were processed

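The authors deposited 1 table of expected counts per gene for 12 libraries, with no scaling to depth, and list RSEM 1.3.1, HISAT2 2.2.1 and the build mm39 in their processing notes. Of the values, 3.37% were not whole (tolerance 1e-06), and all were rounded before testing. How genes were annotated, whether strand was used and what was filtered is not given in the sources used here, and overlapping, antisense and near-identical genes are therefore uncertain. Identifiers matched RefSeq symbols for 16387 of 16414 genes and not for 27. Since that annotation and GENCODE M21 are of GRCm38 and the files of mm39, coordinates belong to the printed sequences alone.

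The main test was the two-sided quasi-likelihood test of edgeR 4.0.16 under R 4.3.3 (robust fit, TMM scaling, genes kept by filterByExpr, Benjamini-Hochberg adjustment over 11703 genes), with all 12 libraries in 1 fit of 4 groups. The study used DESeq2 and q below 0.01, so calls needed an adjusted p below 0.01 and were counted at 0.05 as well. Differences by pair are of log2 CPM with TMM factors and a prior count of 2, which pulls low genes towards 0. CPM below 1 rest on fewer than 20 counts. The fit was tested on simulated data. At these totals (17.7 to 18.9 in units of 1e+06 at day 6) counting error is small for genes at high levels. In genes of a few CPM it can be a large part of the spread between pairs, and it limits the precision there.

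Replicate numbers were checked for pairing on residuals from group means. Same-numbered libraries of 1 day had r between 0.485 and 0.825 and those of different days between 0.253 and 0.541, in 18 of 18 pairs, against -0.688 to 0.312 for other libraries. What a number stands for is not in the labels, so the pairing comes from these data. The common dispersion was 0.0278 without a block and 0.00262 with a block of replicate numbers within each day. No day 6 libraries agreed within sampling noise.

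Genes named are the study's 12 for day 6, 13 of its candidates and Mest. Further ones are the 12 each way with the largest least pair difference at 5 CPM or more, and called genes. Also named are the 2 members of each of 33 gene lists with the largest least difference and the 5 lowest genes with an 8-base match. Genes called between days were added. A few of these genes and 1 list are not reported here. Members and lists were chosen with earlier results of these data known. Alternatives were DESeq2 1.42.0, limma-voom (limma 3.58.1), RLE scaling, library totals, no filter, blocks, another prior count, a minimum of 5 CPM, removal of the GC trend and leaving out each library or pair.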

Additional observations from a re-analysis of the deposited data

Results flagged for a closer look

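In 1 gene list and in 5 of the genes named by rule, every pair of day 6 lay on the other side of 0 from every pair of day 3. Most genes named by rule were picked for 1 direction at day 6, so some would stand opposite at day 3 without any change between days. The share over all genes tested was not counted, and the 5 are a description. For none of the 5 genes was the difference between the days called (adjusted p = 1 in edgeR with the replicate block). The lipid droplet and lipolysis list had a median of 0.0964 over its members' mean differences at day 6. Its median gene differed by 0.10, 0.11 and 0.056 in the pairs of day 6, against -0.010, -0.13 and -0.030 in those of day 3. The difference of the list between the days was not tested. Its day 6 value was 0.055 without pair 2 and 0.063 without pair 3. Its member Pnpla2 differed by 0.12 on average at day 6 (0.15, 0.12 and 0.085), against -0.076, -0.12 and -0.0015 at day 3 (unadjusted p = 0.0123 with the block in edgeR).

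Col1a1, the alpha 1 chain of type I collagen, differed by -0.18 on average at day 6 (-0.066, -0.24 and -0.24), against 0.20, 0.090 and 0.12 at day 3. The difference between the days was log2 -0.32 in edgeR with the replicate block (unadjusted p = 3.12e-04) and had an unadjusted p of 0.514 without it. Aldoa, a glycolytic aldolase, differed by 0.092 on average at day 6 (0.052, 0.082 and 0.14), against -0.00067, -0.059 and -0.044 at day 3 (unadjusted p = 0.0752 with the block in edgeR). Mrpl50, of the mitochondrial ribosome, differed by 0.15 on average at day 6 (0.20, 0.10 and 0.14), against -0.086, -0.057 and -0.041 at day 3 (unadjusted p = 0.0293 with the block in edgeR), and Tmem229b by -0.31 (-0.49, -0.0047 and -0.44), against 0.99, 0.029 and 0.21 at day 3 (unadjusted p = 0.0625 with the block in edgeR).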

How the results depend on the processing

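Of the counts of called genes at day 6, all under no block stayed at 0, and those with the replicate block did so at 0.01 except without pair 1, where 11 genes were higher and 4 lower. At 0.05, the block gave 3 lower genes in edgeR, with RLE scaling and in limma-voom, and 0 in DESeq2. The test of the difference between the days gave 1 higher gene at 0.05 with the block, with TMM as with RLE scaling, and 0 in DESeq2 and limma-voom with the block and with 1 block for both days. Over 2 pairs in place of 3, genes higher in every pair numbered 2117 to 3322 and lower ones 2741 to 3718, since fewer pairs have to agree. The median of the mean differences of the matrix glycoproteins, -0.090, was -0.072 with the GC trend removed and -0.12 to -0.061 without 1 pair. That of the interferon list was -0.11 over members at 5 CPM or more and between -0.22 and -0.15 without 1 pair, and that of cholesterol synthesis 0.096 to 0.15 without 1 pair. The median of all genes was 0.0011 with the GC trend removed. That of genes with no seed match was -0.0039 with RLE scaling and 0.0017 with the GC trend removed. Leaving out 1 library or pair, the unpaired fold change turned sign in 8 of the named genes and ran from -0.67 to 1.3 for Fam241a, -0.20 to 0.82 for Orm1, -0.26 to 0.99 for Dhrs9, -0.84 to 1.4 for Peg3, -0.34 to 0.74 for Clcn5, -1.01 to 0.12 for Sned1, -0.99 to 0.19 for Fmod and -0.89 to 0.24 for Dcn (log2). The causes of these changes were not tested. Of 868 values of mean differences of single genes, 11 moved by more than the SD of the pairs, 10 of them with the GC trend removed. Genes below 1 CPM are limited by depth.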

Other observations

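The genes below were chosen after their values were seen and carry no test of their own. Of the 9 genes more than 1.5-fold lower in all 3 pairs, all stood under 5 CPM with the miR-335-5p mimic. Besides H2bc23, Usp18 and Mmp3, they included Kcnn4, a calcium-activated potassium channel, with 2.17, 2.93 and 4.28 CPM in the miR-335-5p libraries, against 3.41, 4.62 and 6.78 CPM in the NT libraries, whose 3 differences were nearly equal (-0.62, -0.64 and -0.65), and Ptprv, a receptor phosphatase gene, with 1.72, 2.22 and 3.02 CPM under the miR-335-5p mimic, against 2.75, 4.27 and 5.12 CPM under the NT mimic. Levels ran by replicate number in both, so the groups overlapped. At day 3 Kcnn4 differed by -0.015, 0.25 and -0.51.

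Among genes at higher levels whose groups did not overlap, Psmb10, the third catalytic subunit of the immunoproteasome and not on the interferon list, had 63.8, 69.7 and 66.7 CPM in the miR-335-5p libraries, against 72.5, 85.6 and 73.1 CPM in the NT libraries. Serpinb1a, an inhibitor of neutrophil proteases, had 62.2, 64.3 and 68.1 CPM in the miR-335-5p libraries, against 74.7, 72.0 and 74.7 CPM in the NT libraries, and Def8, a lysosome-positioning protein, 44.9, 45.1 and 46.3 CPM under the miR-335-5p mimic, against 52.3, 50.6 and 53.0 CPM under the NT mimic. Socs2, a feedback inhibitor of growth hormone signalling, went the other way, with 32.1, 40.8 and 36.3 CPM in the miR-335-5p libraries, against 29.5, 31.5 and 31.9 CPM in the NT libraries.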
